A study of Bos taurus with 31 samples.

Results

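The complement genes described here are the components, regulators and receptors of the complement system whose symbols stood on a fixed list of names, and all 32 listed genes were found in the count table, each in exactly 1 of its 24616 rows. They were measured by RNA sequencing of liver biopsies from 31 lactating German Holstein cows, taken in week 16 of a feeding trial. Cows of the CONHC (n = 8) and CONLC (n = 8) groups received a control ration, and cows of the GLYHC (n = 8) and GLYLC (n = 7) groups a ration whose peas, wheat grain and straw carried residues of a glyphosate formulation from a treatment before harvest. HC rations held 60% and LC rations 30% concentrate on a dry matter basis, and all groups ate total mixed rations with maize silage, grass silage and straw. Each sample was a separate cow, so the p-values refer to the spread between these cows. The question was how concentrate feed proportion and glyphosate residues, alone or together, affect hepatic gene expression.

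Complement is a protein cascade of the blood that marks microbes and damaged cells, draws in leukocytes and can perforate membranes. It is started by the classical pathway (antibody), the lectin pathway (sugars on microbes) or the alternative pathway (spontaneous turnover of C3). All of them meet at the cleavage of C3 and lead to the terminal components, which assemble into the membrane attack complex. Hepatocytes make most of the circulating components and fluid-phase regulators, while macrophages and other leukocytes carry the receptors and make properdin and part of factor D. Many of the liver-made proteins are acute phase proteins.

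Values are normalized counts, that is reads per gene scaled to a common library size. They compare cows within a gene and not genes with each other, since transcript lengths were not used. The libraries held 11675800 to 36675500 reads in genes, with a median of 19781100. The 32 complement genes together took 5.07% to 7.84% of these reads in a cow, with a median of 6.13%, and C3 alone took 1.46% to 2.96%, shares that also depend on transcript length. All 12 hepatocyte markers of a fixed list, such as ALB and TTR, were detected in the table. A few biopsies held transcripts of other tissues. GLYLC cow 912 had 4283 normalized counts of FABP2, a gene of the intestinal epithelium whose median over all cows was 0. CONLC cow 103 had the highest sum of 10 mesenchymal markers, 49638, where the other groups reached at most 11196. GLYHC cows 32, 117 and 154 had scores of 2.64, 2.29 and 2.97 for a list of skin genes (mean log2 CPM, each gene centred), where the next cow had 0.88, although the summed skin level was at most 193.2 normalized counts. For several genes and scores, values are given with and without cow 912.

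A gene was called different when its unadjusted p was under 0.05 and its Benjamini-Hochberg adjusted p in the edgeR quasi-likelihood test, over 15916 genes, was under 0.1. All 32 complement genes had enough reads to be tested, and none was called in any of the 7 contrasts. The share of all tested genes that were called was 0% for CONHC against CONLC, 0.201% for GLYHC against GLYLC, 1.45% for HC against LC over all cows, 0% for GLYHC against CONHC, 0.0628% for GLYLC against CONLC, 0% for the interaction and 0% for GLY against CON over all cows. The statements on single genes that follow therefore describe estimates and unadjusted p-values, not called differences. DESeq2, run as an alternative on the 16 control cows alone, called 3 of the 32 genes between CONHC and CONLC, namely CD59, C5 and C6. On all 31 cows DESeq2 called CD59 alone in that contrast, and between HC and LC over all cows it called 1 gene without and 3 genes with independent filtering. The shares above are from edgeR. For DESeq2 and the other alternatives the share of all tested genes called was not counted, so calls there have no such comparison.

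At an unadjusted p under 0.05, 8 complement genes were higher and 0 lower in CONHC than in CONLC, where 2.71% of all tested genes were higher and 3.25% lower. The 8 genes were C2, C4A, MASP2, C5, C6, CD55, CD59 and C3AR1. In GLYHC against GLYLC, 4 genes were higher (CLU, C3AR1, C5AR1 and CR2) and 3 lower (MASP1, C4BPA and CD46), against 5.06% higher and 7.45% lower among all tested genes. Over all cows 12 genes were higher in HC and 2 lower, beside 5.88% and 7.81% of all tested genes. The 32 genes were not independent of each other across cows, as their correlations below show. They were also chosen with earlier results of these data known, so these counts are descriptions. The count in control cows went down to 4 without CONHC cow 144 and to 5 without CONLC cow 169, and the highest count on leaving out a single cow was 10. With cows 912, 103, 32, 117 and 154 all left out, a choice made after seeing the data, the counts were 7 in control cows and 3 in glyphosate cows, and no complement gene was called.

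By sign alone, 28 of the 32 estimates were positive in the control cows and 20 in the glyphosate cows. The median log2 fold change of the 32 genes was 0.18 in control cows and 0.06 in glyphosate cows, against a median of -0.01 over all tested genes in both. The 12 hepatocyte markers had medians of 0.14 in control cows and 0.09 in glyphosate cows, with 10 and 9 positive estimates. An upward shift was thus not particular to the complement genes. The 2 contrasts share no cow. Their signs were the same for 24 genes (20 higher and 4 lower in both), or 75.0%, compared with 58.1% of all tested genes. Without cow 912 the signs of 22 genes were the same. Across the 32 genes the 2 sets of estimates had a Pearson r of 0.51 and a Spearman rho of 0.52, and across all tested genes 0.15 and 0.22. Genes are not independent replicates, so these are descriptions. Only C3AR1 had an unadjusted p under 0.05 in both contrasts.

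**Figure D1:**
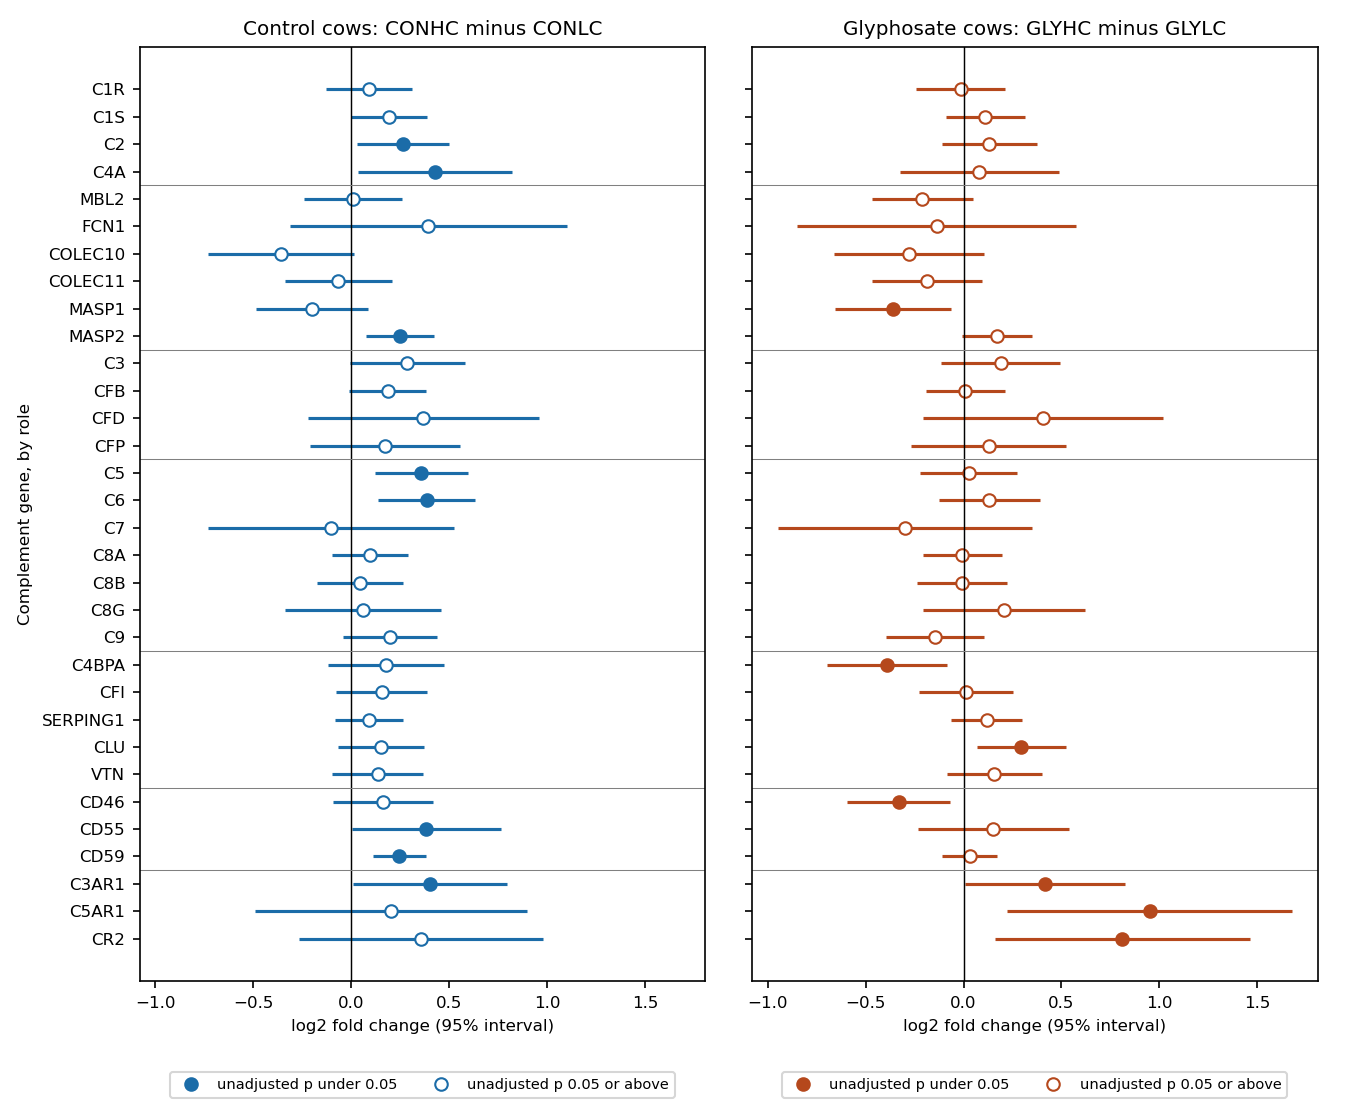
Log2 fold change of each of the 32 complement genes between HC and LC in control cows (left) and glyphosate cows (right), with 95% intervals, ordered by role. Filled points have an unadjusted p under 0.05, and none of the genes was called after adjustment. On the left 28 points lie above 0 and on the right 20.

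The intervals show what sizes of difference remain compatible with the data. In control cows both bounds lay within 1 log2 unit of 0 for 31 of 32 genes and within 0.5 for 19. In glyphosate cows the corresponding numbers were 29 and 18, and the widest upper bound was 1.68 for C5AR1.

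The classical pathway is started by C1, in which C1r activates C1s and C1s cleaves C4 and C2, whose fragments form the C3 convertase. All 4 classical genes had positive estimates in control cows, and C2 and C4A reached an unadjusted p under 0.05. C2 (ENSBTAG00000007450), the protease that gives the convertase its activity, had normalized counts of 11243 in the lowest, 12447 in the median and 16062 in the highest CONHC cow, and of 8699, 10501 and 13071 in CONLC. In GLYHC the values were 10350, 12018 and 17087, and in GLYLC 9501, 11679 and 14189. CONHC lay higher than CONLC at each of these points, but the groups overlapped. For C2, the log2 fold change was 0.27 (SE 0.11, 95% interval 0.03 to 0.50, edgeR adjusted p = 0.775) in control cows and 0.13 (SE 0.12, -0.11 to 0.37, adjusted p = 0.694) in glyphosate cows. Over all cows it was 0.20 (SE 0.08).

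C4A (ENSBTAG00000037533), the C4 precursor that binds covalently to target surfaces, spanned 33039 to 54014 in CONHC (median 38328) and 22545 to 39917 in CONLC (median 29237). GLYHC cows spanned 22451 to 72430 (median 36091), the highest being cow 32, and GLYLC cows 27840 to 52939 (median 40532). The lower range belonged to CONLC. GLYHC covered both control ranges, whereas GLYLC began above the lowest CONLC cow and ended below the highest CONHC cow. Its log2 fold change of 0.43 (SE 0.19, 95% interval 0.04 to 0.82, edgeR adjusted p = 0.802) was the largest of the 32 genes in control cows. In glyphosate cows it was 0.08 (SE 0.20, -0.33 to 0.49, adjusted p = 0.917). C4 genes have near-identical copies between which reads may be split, so C4A values are uncertain in that respect. C1S (ENSBTAG00000004840), the C1 protease that cleaves C4 and C2, had medians of 83813 (80398 to 108053) in CONHC, 79809 (59584 to 92410) in CONLC, 88953 (75624 to 104900) in GLYHC and 80823 (72036 to 95954) in GLYLC. Both HC medians were above their LC medians, with wide overlap. Its estimate was 0.19 (SE 0.10, unadjusted p = 0.0512) in control cows, 0.11 (SE 0.10) in glyphosate cows and 0.15 (SE 0.07, 95% interval 0.01 to 0.29, edgeR adjusted p = 0.300) over all cows. C1R, its partner protease, had means of 71163 ± 5766 (SD) in CONHC and 66838 ± 8227 in CONLC, 68587 ± 15249 in GLYHC and 69223 ± 7179 in GLYLC, with estimates of 0.09 and -0.01.

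In the lectin pathway, collectins and ficolins bind sugars and the MASP proteases act on C4 and C2. The 6 genes did not share a direction: 3 estimates were positive in control cows and 1 in glyphosate cows. MASP2 (ENSBTAG00000012808), the protease that forms the convertase, had 4505, 5178 and 6706 normalized counts in the lowest, median and highest CONHC cow and 3718, 4242 and 5452 in CONLC. GLYHC cows had 4323, 5546 and 6326 and GLYLC cows 4258, 4751 and 5173. HC medians were higher than LC medians with and without glyphosate residues, the groups overlapping in both. The estimates were 0.25 (SE 0.09, 95% interval 0.07 to 0.42, edgeR adjusted p = 0.635) and 0.17 (SE 0.09, -0.01 to 0.35, adjusted p = 0.431). Over all cows the estimate was 0.21 (SE 0.06, 0.09 to 0.33), and its adjusted p of 0.103 was the closest to the threshold among the 32 genes in that contrast. The gene was called there under RLE and upper-quartile normalization and by DESeq2.

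MASP1 (ENSBTAG00000012467), which activates MASP2, lay on the other side. Its normalized counts were 1924, 2639 and 3680 (lowest, median, highest) in CONHC, 2125, 2984 and 4240 in CONLC, 1921, 2202 and 3549 in GLYHC, and 2681, 3338 and 3866 in GLYLC. Most GLYHC cows stood below the lowest GLYLC cow, but 3 of them did not, so the groups overlapped. Its estimate was -0.36 (SE 0.15, 95% interval -0.66 to -0.06, edgeR adjusted p = 0.296) in glyphosate cows, -0.20 (SE 0.14, -0.49 to 0.09, adjusted p = 0.929) in control cows and -0.28 (SE 0.10, -0.48 to -0.07, adjusted p = 0.199) over all cows. COLEC10 (ENSBTAG00000017343), a collectin that carries MASP proteases, ranged from 120.5 to 230.9 in CONHC (median 170.1), 121.6 to 278.7 in CONLC (median 228.5), 101.1 to 212.6 in GLYHC (median 167.3) and 137.3 to 274.1 in GLYLC (median 205.0). HC cows tended to lower values in both rations and the ranges overlapped. Its estimates were -0.36 (SE 0.18, unadjusted p = 0.0574), -0.28 (SE 0.19) and, over all cows, -0.32 (SE 0.13, 95% interval -0.58 to -0.06, edgeR adjusted p = 0.249).

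The other lectin pathway genes did not reach an unadjusted p of 0.05. MBL2, a mannose-binding lectin, had means of 23112 ± 1801 in CONHC, 22975 ± 6127 in CONLC, 20448 ± 1403 in GLYHC and 23643 ± 4441 in GLYLC, and estimates of 0.01 and -0.21. Cow 912 was its lowest GLYLC cow at 15783. Without that cow the glyphosate estimate was -0.29 (unadjusted p = 0.0238, edgeR adjusted p = 0.540), and DESeq2 on those 14 cows called MBL2. COLEC11, the partner of COLEC10 in a collectin heteromer, had means of 505.9 ± 72.4, 528.9 ± 113.0, 476.0 ± 85.5 and 541.4 ± 112.0 in the same order of groups. FCN1, a ficolin of monocytes and granulocytes, was detected at 2 to 52 reads per cow, and its group means of 21.4, 15.8, 19.5 and 21.3 with SD of 7.26, 10.2, 5.98 and 11.1 do not resolve a difference (estimates 0.39 and -0.14, SE 0.35 and 0.35).

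C3 (ENSBTAG00000017280), on which all pathways converge, had 367786, 489744 and 592882 normalized counts in the lowest, median and highest CONHC cow and 268267, 401403 and 473307 in CONLC. The values were 321769, 452916 and 669346 in GLYHC and 348563, 416690 and 488941 in GLYLC. Both HC groups reached higher than their LC groups and began inside or near them. For C3, the estimate was 0.29 (SE 0.14, unadjusted p = 0.0545) in control cows, 0.19 (SE 0.15) in glyphosate cows and 0.24 (SE 0.10, 95% interval 0.03 to 0.45, edgeR adjusted p = 0.275) over all cows. CFB, the protease of the alternative C3 convertase, had means of 123748 ± 9045 in CONHC and 108744 ± 14307 in CONLC, an estimate of 0.19 (unadjusted p = 0.0617), and of 118634 ± 16338 in GLYHC and 117811 ± 17519 in GLYLC, an estimate of 0.01. CFB and C2 are neighbouring genes, and the strand setting of the counting was not given in the sources used here. CFD, which cleaves factor B, had means of 871.3 ± 297.7, 674.1 ± 261.3, 809.1 ± 350.2 and 610.3 ± 261.7 in CONHC, CONLC, GLYHC and GLYLC. Its estimates of 0.37 and 0.41 were among the larger ones, with SE of 0.29 and 0.30. Properdin (CFP), which stabilizes the alternative convertase, had means of 317.2 ± 71.4, 280.4 ± 96.4, 321.4 ± 88.1 and 292.9 ± 72.1 and estimates of 0.17 and 0.13.

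In the terminal pathway, C5 is cleaved to start assembly and C6, C7, C8 and C9 build the pore. C5 and C6 had the smallest unadjusted p-values of the terminal genes in control cows, whereas their estimates in glyphosate cows were smaller. C5 (ENSBTAG00000012210) had 33443, 40054 and 50504 normalized counts in the lowest, median and highest CONHC cow and 25519, 32654 and 37053 in CONLC. In GLYHC it had 31433, 36134 and 49536 and in GLYLC 28759, 40894 and 45138. CONLC was the low group, and the GLYLC median exceeded the GLYHC median. For C5, the estimate was 0.36 (SE 0.12, 95% interval 0.12 to 0.60, edgeR adjusted p = 0.585) in control and 0.03 (SE 0.12, -0.22 to 0.27, adjusted p = 0.959) in glyphosate cows. The difference between these 2 estimates, the interaction, was -0.33 (SE 0.17, -0.67 to 0.01, unadjusted p = 0.0550, adjusted p = 0.999). GLYLC against CONLC gave 0.25 (SE 0.12, unadjusted p = 0.0478), and without cow 912 0.22 (unadjusted p = 0.0848).

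C6 (ENSBTAG00000014177) ranged from 18562 to 25925 in CONHC (median 22164), 11437 to 20361 in CONLC (median 17357), 15853 to 28963 in GLYHC (median 19516) and 15527 to 22072 in GLYLC (median 18855). CONHC stood highest as a group and the single highest cow was GLYHC cow 32. The estimates were 0.38 (SE 0.12, 95% interval 0.14 to 0.63, edgeR adjusted p = 0.553) in control cows, 0.13 (SE 0.13, -0.12 to 0.39, adjusted p = 0.712) in glyphosate cows and 0.26 (SE 0.09, adjusted p = 0.168) over all cows. In DESeq2 on the control cows alone the adjusted p-values were 0.0611 for C5, 0.0581 for C6 and 0.0116 for CD59.

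The remaining terminal genes did not reach an unadjusted p of 0.05. C9, which forms the ring of the pore, had means of 59449 ± 5860 in CONHC, 51847 ± 8675 in CONLC, 54845 ± 9883 in GLYHC and 60770 ± 10836 in GLYLC. Its estimates of 0.20 and -0.15 gave an interaction of -0.35 (unadjusted p = 0.0517). C8A and C8B, subunits of C8, had means of 25729 ± 2639, 24070 ± 3105, 25713 ± 3415 and 25842 ± 3874, and of 22657 ± 1740, 21960 ± 3753, 21718 ± 2852 and 21836 ± 3927, in CONHC, CONLC, GLYHC and GLYLC. Every estimate of these subunits lay between -0.01 and 0.10. C8G, the third C8 subunit and a lipocalin, had means of 6540 ± 1655, 6278 ± 1738, 7079 ± 1703 and 6137 ± 1984. C7, which anchors the complex in the membrane, varied widely within groups, with means of 434.5 ± 197.4, 465.8 ± 289.3, 377.2 ± 158.8 and 466.1 ± 174.8.

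**Figure D2:**
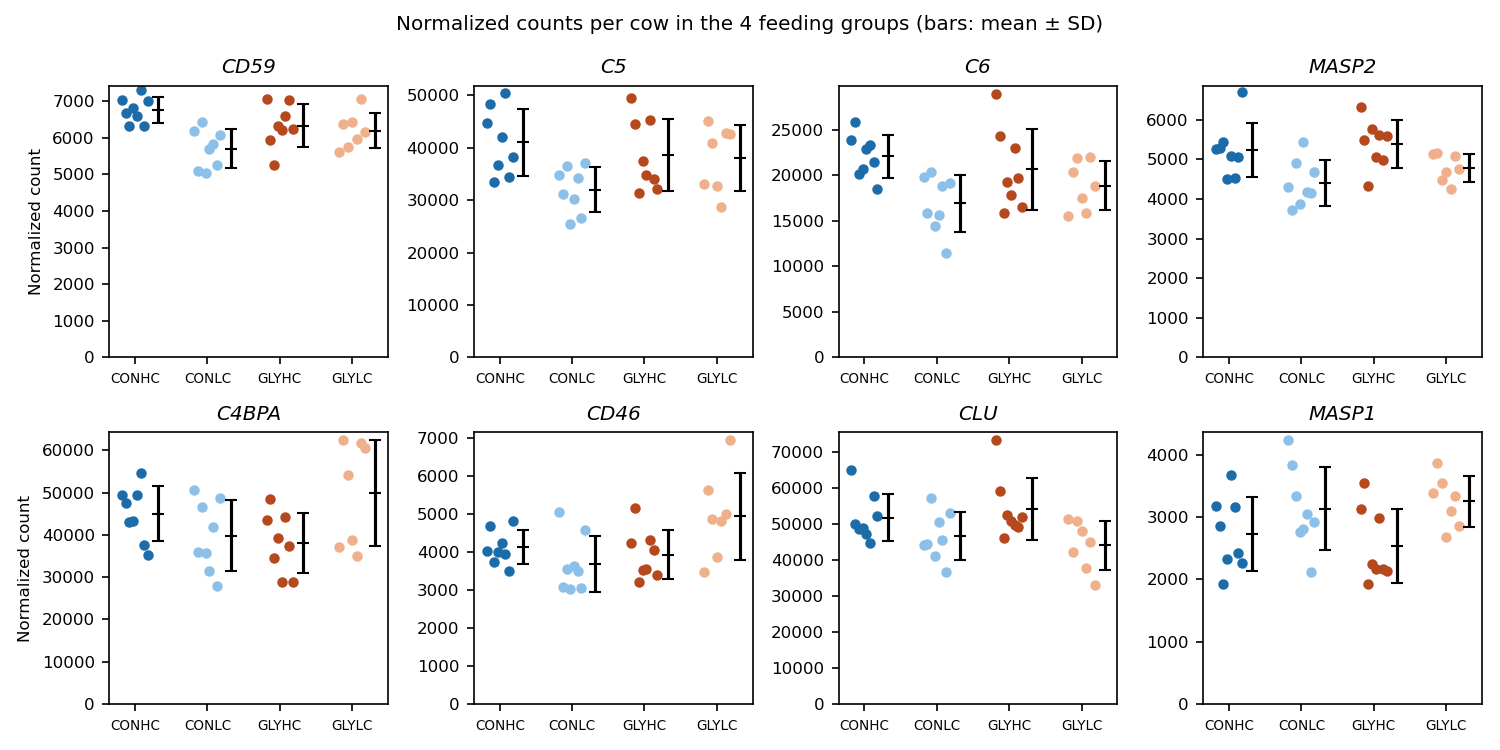
Normalized counts of 8 complement genes in each cow (points) of the 4 groups, with mean ± SD beside them. CONLC lies lowest for CD59, C5 and C6, GLYLC lies highest for C4BPA and CD46, and all groups overlap.

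Regulators in the fluid phase and on membranes stop the cascade on host cells. C4BPA (ENSBTAG00000009876), the alpha chain of the C4b-binding protein that assists factor I, had the largest negative estimate in glyphosate cows. Its normalized counts were 35207, 45402 and 54714 (lowest, median, highest) in CONHC, 27862, 38881 and 50723 in CONLC, 28754, 38266 and 48400 in GLYHC and 34988, 54126 and 62411 in GLYLC. GLYLC split into low and high cows, 4 of 7 lying above the whole GLYHC range. The log2 fold change was -0.39 (SE 0.15, 95% interval -0.70 to -0.09, edgeR adjusted p = 0.274) in glyphosate cows and 0.18 (SE 0.14, -0.12 to 0.47, adjusted p = 0.959) in control cows. The interaction was -0.57 (SE 0.21, -0.99 to -0.14, unadjusted p = 0.0105, adjusted p = 0.999), and GLYLC against CONLC gave 0.33 (SE 0.15, unadjusted p = 0.0365, adjusted p = 0.836). Without cow 912 the latter was 0.28 (unadjusted p = 0.0792).

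CD46 (ENSBTAG00000005397), a membrane cofactor for factor I, also had its highest median in GLYLC, but its lowest in CONLC and not in GLYHC. The lowest, median and highest normalized counts were 3507, 4023 and 4817 in CONHC, 3023, 3525 and 5046 in CONLC, 3202, 3799 and 5154 in GLYHC and 3472, 4861 and 6948 in GLYLC. The highest value belonged to cow 912, the biopsy with intestinal transcripts. The estimate was -0.33 (SE 0.13, 95% interval -0.60 to -0.07, edgeR adjusted p = 0.281) in glyphosate cows and 0.16 (SE 0.12, -0.09 to 0.42, adjusted p = 0.953) in control cows, with an interaction of -0.49 (SE 0.18, -0.86 to -0.13, unadjusted p = 0.0100, adjusted p = 0.999). GLYLC against CONLC gave 0.42 (SE 0.13, 0.16 to 0.69, adjusted p = 0.394). Without cow 912 these became -0.23 (unadjusted p = 0.0709) in glyphosate cows, -0.39 (unadjusted p = 0.0266) for the interaction and 0.33 (unadjusted p = 0.0129) for GLYLC against CONLC. The part of intestinal tissue in the value of that cow was not tested.

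CD59 (ENSBTAG00000002302), a membrane-anchored inhibitor of the membrane attack complex, was the least variable of the 32 genes, with a within-group SD of 0.117 on the log2 scale, and had the smallest unadjusted p of them in control cows. Its values were 6327, 6749 and 7301 (lowest, median, highest) in CONHC and 5042, 5761 and 6439 in CONLC, and 5264, 6286 and 7064 in GLYHC and 5624, 6166 and 7059 in GLYLC. The control groups overlapped only at their edges, and both glyphosate groups lay within the combined range of the control groups. The log2 fold change was 0.25 (SE 0.07, 95% interval 0.11 to 0.38, edgeR adjusted p = 0.393) in control and 0.03 (SE 0.07, -0.11 to 0.17, adjusted p = 0.899) in glyphosate cows. The interaction was -0.21 (SE 0.10, -0.41 to -0.02, unadjusted p = 0.0324, adjusted p = 0.999). Of all 32 genes, 3 had an unadjusted p under 0.05 in the interaction (C4BPA, CD46 and CD59), where 4.21% of all tested genes did.

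CD55 (ENSBTAG00000006984), which speeds the decay of convertases, was low, with 18 to 111 reads per cow. Its normalized counts were 47.6, 72.3 and 95.6 in CONHC, 29.5, 57.7 and 65.5 in CONLC, 61.7, 70.7 and 104.3 in GLYHC and 40.6, 65.4 and 108.5 in GLYLC (lowest, median, highest). CONLC held the lowest cow and all ranges overlapped. The estimates were 0.38 (SE 0.19, 95% interval 0.00 to 0.76, edgeR adjusted p = 0.823) and 0.15 (SE 0.19, -0.23 to 0.54, adjusted p = 0.792). CLU (ENSBTAG00000005574), clusterin, a fluid-phase inhibitor of pore assembly, had 44586, 49546 and 64896 in CONHC, 36642, 44962 and 57330 in CONLC, 46212, 51353 and 73412 in GLYHC and 32968, 45014 and 51522 in GLYLC. Both HC groups lay above their LC groups with overlap. Its log2 fold change was 0.30 (SE 0.11, 95% interval 0.07 to 0.52, edgeR adjusted p = 0.261) in glyphosate cows, 0.15 (SE 0.11, -0.07 to 0.37, adjusted p = 0.929) in control cows and 0.22 (SE 0.08, adjusted p = 0.176) over all cows. Without cow 912, its lowest GLYLC cow, the glyphosate estimate was 0.23 (unadjusted p = 0.0413).

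Of the regulators without an unadjusted p under 0.05, CFI, the protease that inactivates C3b and C4b, had means of 64199 ± 6554 in CONHC, 57676 ± 10059 in CONLC, 60153 ± 10483 in GLYHC and 59589 ± 9189 in GLYLC. SERPING1, the C1 inhibitor, had means of 66553 ± 5128, 62540 ± 7302, 68619 ± 7691 and 63227 ± 7895. VTN, vitronectin, which like clusterin blocks pore assembly, had means of 111543 ± 12150, 101622 ± 18320, 111232 ± 10269 and 99692 ± 20632, with cow 912 lowest at 63031. All 3 estimates in control cows were positive.

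The receptors C3AR1, C5AR1 and CR2 had positive estimates in both concentrate contrasts and the largest estimates in glyphosate cows. In a bulk biopsy, fewer cells of a type and less RNA per cell cannot be told apart, and these genes belong to leukocytes. C3AR1 (ENSBTAG00000019741), the receptor of the anaphylatoxin C3a, had 136.3, 294.9 and 388.5 normalized counts in the lowest, median and highest CONHC cow, 142.5, 221.8 and 322.7 in CONLC, 211.8, 303.6 and 353.8 in GLYHC and 134.5, 192.7 and 415.0 in GLYLC. Both HC medians were higher, and GLYLC cow 544 held the highest value of all. The estimates were 0.40 (SE 0.19, 95% interval 0.01 to 0.80, edgeR adjusted p = 0.811) and 0.42 (SE 0.20, 0.01 to 0.82, adjusted p = 0.385), and 0.41 (SE 0.14, 0.13 to 0.69, adjusted p = 0.158) over all cows. Without cow 912, the lowest, the glyphosate estimate was 0.32 (unadjusted p = 0.116). Without cow 544 it was 0.64.

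C5AR1 (ENSBTAG00000020872), the receptor of C5a, was low, with 9 to 158 reads per cow. Its normalized counts were 31.1, 42.3 and 79.3 in CONHC, 14.7, 30.2 and 113.0 in CONLC, 16.5, 49.4 and 89.5 in GLYHC and 22.5, 28.1 and 38.8 in GLYLC (lowest, median, highest). GLYLC was narrow and low, and GLYHC spread on both sides of it. The log2 fold change was 0.95 (SE 0.36, 95% interval 0.22 to 1.68, edgeR adjusted p = 0.261) in glyphosate and 0.20 (SE 0.34, -0.49 to 0.90, adjusted p = 0.990) in control cows, where CONLC cow 260 held the highest value. Over all cows it was 0.56 (SE 0.25). Without cow 260, C3AR1 and C5AR1 (0.81) were both called over all cows. CR2 (ENSBTAG00000038496), the receptor of C3d on B cells and follicular dendritic cells, had 645.5, 931.2 and 1785 in CONHC, 514.4, 653.2 and 1412 in CONLC, 455.7, 861.9 and 2166 in GLYHC and 224.8, 646.8 and 1164 in GLYLC. HC medians were again higher and the ranges overlapped. Its estimates were 0.81 (SE 0.32, 95% interval 0.16 to 1.46, edgeR adjusted p = 0.283) in glyphosate cows, 0.35 (SE 0.30, -0.27 to 0.98, adjusted p = 0.960) in control cows and 0.57 (SE 0.22, adjusted p = 0.228) over all cows.

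Most macrophage markers had, like these receptors, positive estimates for HC against LC, though the differences in their score were not significant after adjustment. The macrophage and Kupffer list held 14 genes, all detected and including the C1q chains C1QA, C1QB and C1QC, and its summed level ranged from 13728 to 36733 in CONHC, 17073 to 30383 in CONLC, 15945 to 38753 in GLYHC and 16823 to 30780 in GLYLC. Of the 14, 13 were higher in HC in each concentrate contrast. Among the 15916 tested genes, 7342 were higher in HC in control cows and 7732 in glyphosate cows. Of the 14, 3 were called over all cows, beside 1.45% of all tested genes. The mean score of the list was higher in HC by 0.28 in control cows (exact permutation p = 0.153) and by 0.50 in glyphosate cows (p = 0.0278, adjusted p = 0.262, exact permutation test over 22 comparisons). Without cow 912 the glyphosate difference was 0.43 (exact permutation p = 0.0586, adjusted p = 0.430). The neutrophil, B cell, T and NK cell, endothelium, bile duct, intestinal, skin and erythrocyte scores had adjusted p-values of at least 0.5, and the mesenchymal score was lower in GLYHC by 0.56 (exact permutation p = 0.00233, adjusted p = 0.0513). Without cow 912 that difference was -0.49 (exact permutation p = 0.00533, adjusted p = 0.117). The intestinal score difference in glyphosate cows was -0.82 with cow 912 and -0.03 without it. The hepatocyte score was higher in HC by 0.12 in control cows (exact permutation p = 0.0357, adjusted p = 0.262) and by 0.11 in glyphosate cows, or 0.045 without cow 912, which had the lowest hepatocyte score.

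Over the 31 cows, after removal of the group means, C3AR1 followed the macrophage score with Pearson r of 0.86 and Spearman rho of 0.79 (permutation p = 1e-05 for each, the smallest the draws can give, adjusted p = 6.6e-05 and 5.5e-05). Leaving out the 2 cows farthest from the median of C3AR1 gave r = 0.77. C5AR1 had r = 0.61 and rho = 0.72 with that score (permutation p = 6e-05 and 2e-05, adjusted p = 0.00018 and 9.43e-05, r = 0.54 without 2 cows) and r = 0.69 and rho = 0.65 with the neutrophil score (permutation p = 1e-04 and 0.00038, adjusted p = 0.000254 and 0.000943, r = 0.61 without 2 cows). Properdin had r = 0.71 and rho = 0.66 with the macrophage score (permutation p = 5e-05 and 0.00022, adjusted p = 0.000165 and 0.000605, r = 0.75). C7 went with the mesenchymal score at r = 0.68 and rho = 0.68 (permutation p = 2e-04 and 1e-04, adjusted p = 0.000471 and 3e-04, r = 0.66). CR2 and the B cell score had r = 0.35 and rho = 0.38 (permutation p = 0.0713 and 0.0493, adjusted p = 0.0981 and 0.0741, r = 0.33). Relations of CFD and FCN1 were mostly weaker. CFD had r = 0.42 with the macrophage score (permutation adjusted p = 0.0398) and 0.34 with the neutrophil score (adjusted p = 0.0956). FCN1 had r = 0.22 with the macrophage score (adjusted p = 0.26). With the neutrophil score FCN1 had r = 0.59 (adjusted p = 0.00307), or 0.36 without 2 cows. These are some of the 33 relations computed. The share of the receptor differences that goes with cell numbers was not tested.

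**Figure D3:**
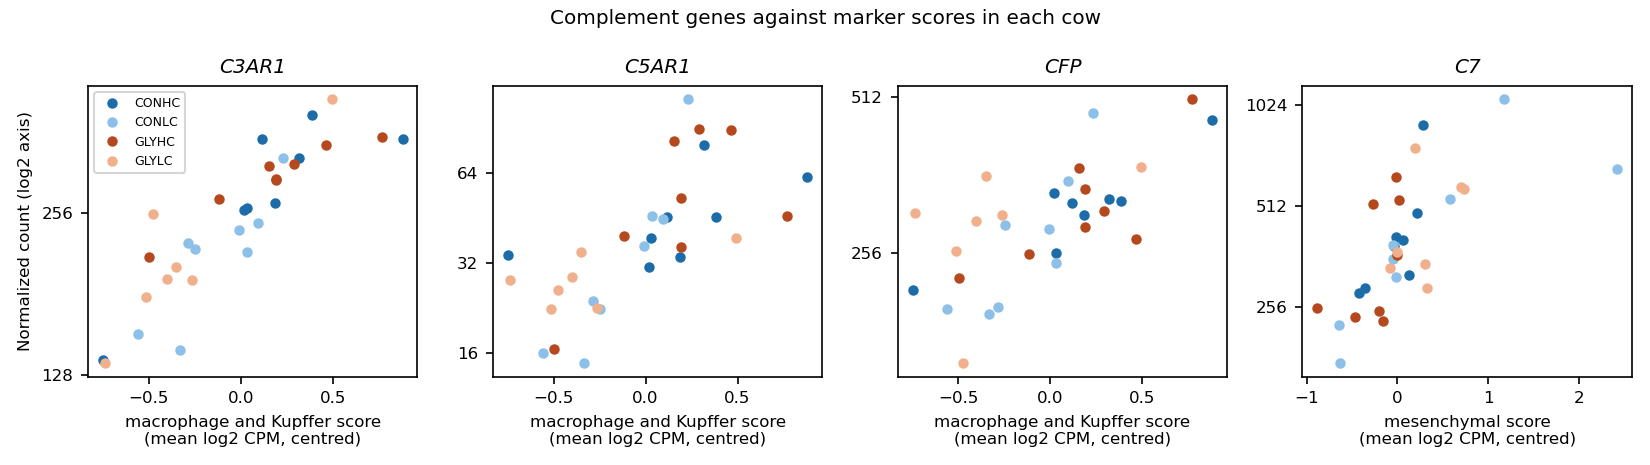
Normalized counts (log2 axis) of C3AR1, C5AR1 and properdin (CFP) against the macrophage and Kupffer marker score, and of C7 against the mesenchymal score, for each of 31 cows coloured by group. The points rise together, with Pearson r of 0.86, 0.61, 0.71 and 0.68 once group means are removed.

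Levels of many liver-made genes moved together from cow to cow. Of the 22 genes with a mean of at least 1000 normalized counts, the 231 pairs had a median Pearson r of 0.48 over 31 cows after removal of group means, and 109 pairs exceeded 0.5. Over all 496 pairs the median was 0.18 and the range -0.62 to 0.87. The same correlations were not computed for other genes of like abundance. Whether this co-movement is particular to the complement genes was therefore not tested. C6 and C9, with 8 coding genes between them, reached r = 0.87 and rho = 0.84. C5 and C6, on different chromosomes, had r = 0.86 and rho = 0.84 (permutation p = 1e-05 for each of these values). C3 and CFB had r = 0.81 and rho = 0.82, C4A and C4BPA r = 0.83 and rho = 0.85 (permutation p = 1e-05 for each, adjusted p = 6.6e-05 for r and 5.5e-05 for rho in these 4 pairs). Leaving out the 2 most distant cows gave r = 0.81, 0.85, 0.78 and 0.82 for the 4 pairs in this order. Neighbouring genes did not all do so: C6 and C7, with 1 coding gene between them in the RefSeq annotation of ARS-UCD2.0, had r = 0.12 and rho = 0.10 (permutation p = 0.586 and 0.622). C8A and C8B, adjacent genes, had r = 0.76 and rho = 0.82 (permutation p = 2e-05 and 1e-05, adjusted p = 9.43e-05 and 5.5e-05, r = 0.71 without 2 cows), while C8A with C8G, the third subunit, had r = -0.00. C8G had its highest r, 0.78, with CFD, a pair picked from all the correlations and not tested. MASP1 and MASP2 had r = 0.09, and COLEC10 and COLEC11 r = 0.06.

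**Figure D4:**
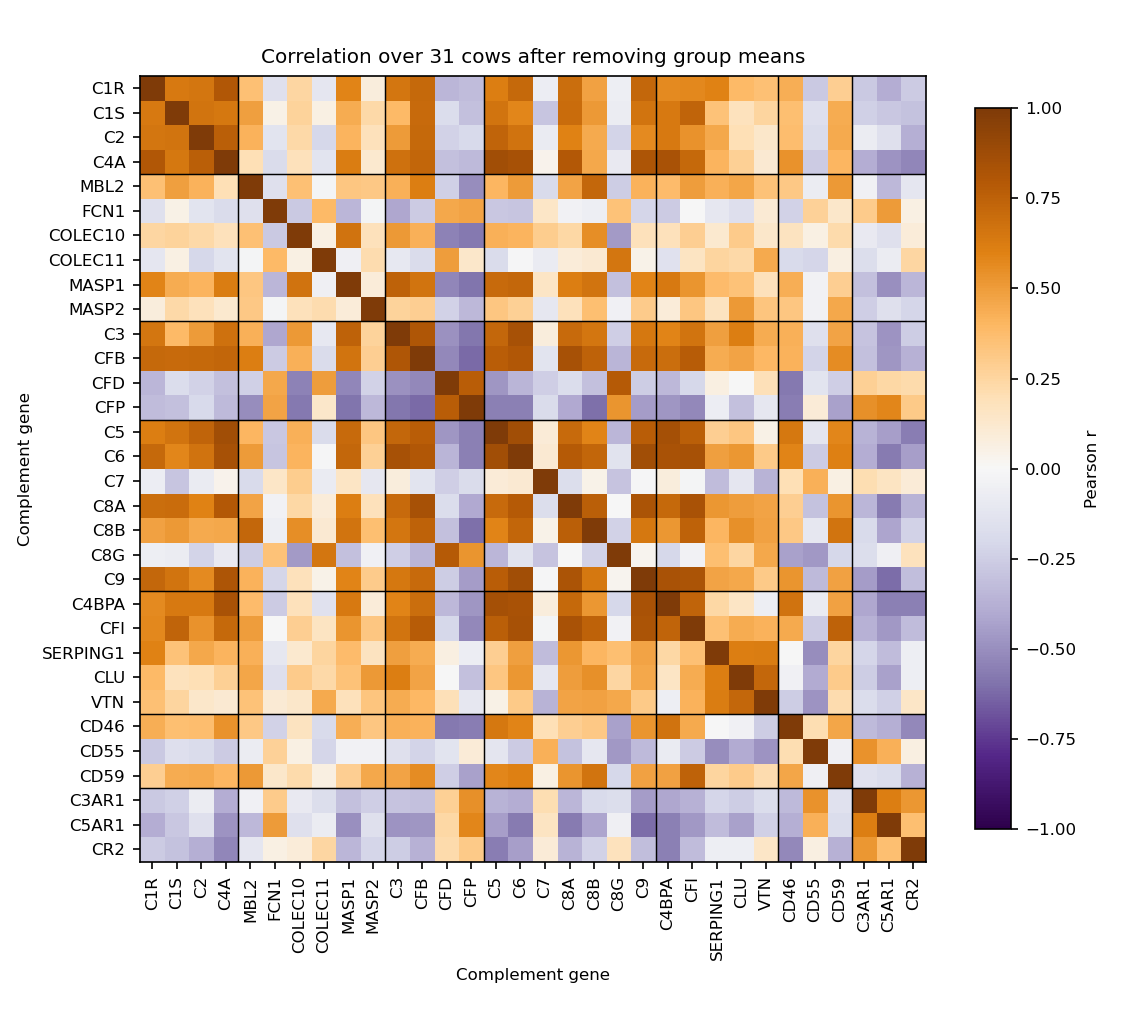
Pearson r between every pair of the 32 complement genes over 31 cows after removal of group means, ordered by role. Most liver-made genes have positive values with each other, with 109 of the 231 pairs of the 22 genes at 1000 or more counts above 0.5 and the lowest of these pairs at -0.43. C8G, one of the 22, had a median r of -0.14 with them, and the receptors, CFD and properdin also had negative medians.

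Some cows stood at the end of their group in many genes. GLYHC cow 32 was the highest of its group in 17 of the 32 genes and lowest in 0, whereas cow 117 of the same group was the lowest in 13. CONLC cow 260 was the lowest of its group in 13 genes and cow 145 the highest in 11. Within groups the SD on the log2 scale had a median of 0.251 over the 32 genes, against 0.340 over all tested genes. Among genes of at least 1000 normalized counts the medians were 0.226 for 22 complement genes and 0.229 for 2023 genes, so at like abundance the spread was similar. It was largest for C5AR1, at 0.670.

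**Figure D5:**
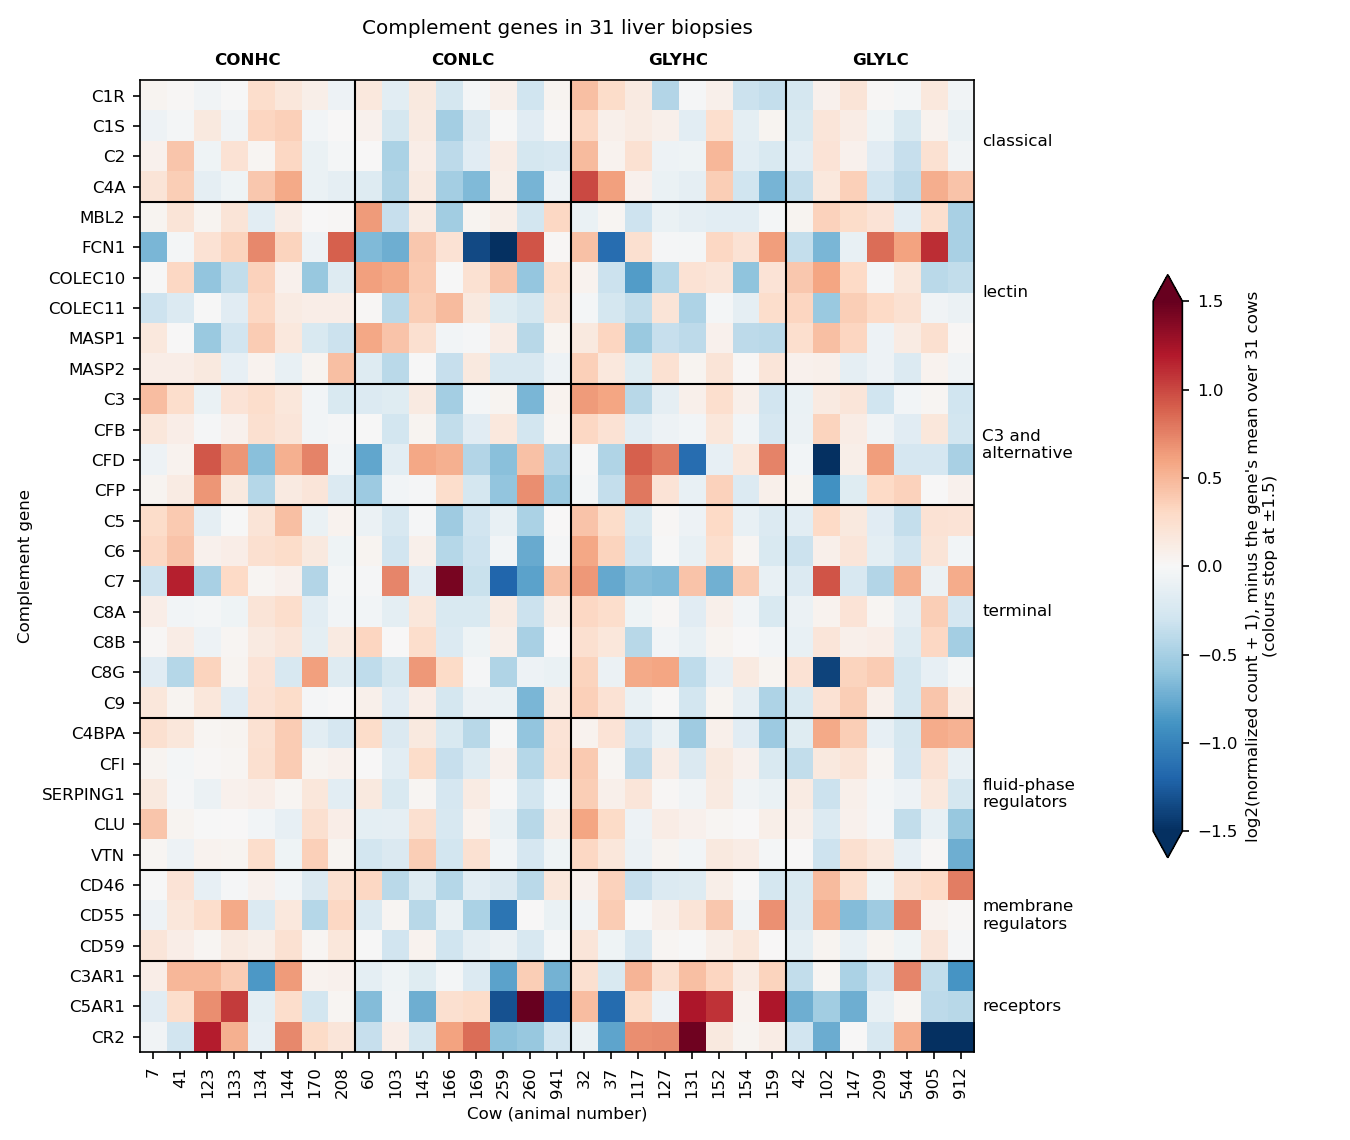
Log2(normalized count + 1) of the 32 complement genes in each of 31 cows, as the difference from the mean of each gene over all cows, with genes by role and cows by group. Columns of one colour show that GLYHC cow 32 was highest in 17 genes and CONLC cow 260 lowest in 13 of its group.

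Glyphosate residues were compared at each concentrate level. In GLYHC against CONHC 0 of the 32 genes had an unadjusted p under 0.05 (2.92% of all tested genes), and in GLYLC against CONLC 3 did, C5, C4BPA and CD46, all higher in GLYLC (5.65%). Over all cows 0 of 32 did (3.92%). These comparisons share their groups with the concentrate contrasts. The 95% intervals for GLYHC against CONHC lay within 1 log2 unit of 0 for all 32 genes and within 0.5 for 25. In GLYLC against CONLC the lowest bound was -1.20, for C5AR1, and the highest 1.11, for FCN1.

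Of 35 further complement-related genes on a separate list, 23 were in the table and tested, and none was called in any of the 7 contrasts. Among those with an unadjusted p under 0.05 in control cows, CRP, C-reactive protein, which can start the classical pathway, had means of 55549 ± 7772 in CONHC and 43822 ± 7991 in CONLC (log2 fold change 0.34, SE 0.13). In glyphosate cows the CRP means were 49820 ± 10326 in GLYHC and 56131 ± 10210 in GLYLC, an estimate of -0.17 (SE 0.13), and the interaction was -0.51 (SE 0.19, unadjusted p = 0.00999, edgeR adjusted p = 0.999). A2M, a broad protease inhibitor, had an estimate of 0.80 (SE 0.31) in control cows and 0.06 (SE 0.31) in glyphosate cows. KLKB1, plasma kallikrein, had 0.33 (SE 0.13) in control cows. In glyphosate cows ITGAM (0.65, SE 0.21) and ITGB2 (0.57, SE 0.20), the chains of complement receptor 3 on myeloid cells, and KLKB1 (0.31, SE 0.13) were higher in GLYHC. C4BPB, the beta chain of the C4b-binding protein, was lower, with means of 1876 ± 407 in GLYHC and 2562 ± 549 in GLYLC (-0.45, SE 0.14, edgeR adjusted p = 0.206), as was CPN1 (-0.29, SE 0.13), a subunit of the carboxypeptidase that trims C3a and C5a. C4BPB thus had the same sign as C4BPA in glyphosate cows, and its interaction was -0.62 (SE 0.20, unadjusted p = 0.00416, adjusted p = 0.999).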

How the data were processed

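The authors trimmed paired reads (FastQC, Trim Galore), aligned them to UMD3.1 with HISAT2 2.1.0 and counted them per Ensembl gene with HTSeq 0.8.0; the strand setting is not given in the sources used here. The deposited table of raw counts, made by the authors, was used as deposited, and the normalized table was not used. Genes with fewer than 20 reads over all 31 cows were left out, leaving 15916 of 24616 genes. Counts were tested with edgeR 4.0.16 (TMM, quasi-likelihood F test, 4 group means) in R 4.3.3, and, as additive models, for the effects over all cows. P-values were adjusted by Benjamini-Hochberg over all tested genes. Intervals are 95% intervals. Log2 CPM (prior count 2) centred on group means was used for correlations, with 100000 permutations of cows within groups. Scores are the mean log2 CPM of a marker list, each gene centred on its median over all cows. DESeq2 1.42.0, other normalizations, filters and each cow left out in turn were alternatives. The test was checked on simulated data with changes larger than the estimates reported here. That check does not show how often differences of the reported sizes would be called. Reads counted in genes numbered 11675800 to 36675500 per sample. The genes and lists were chosen with earlier results of these data known. Genes are named in full when their unadjusted p was under 0.05 in any contrast. No sequences are given, and no coordinates. One gene of the separate list of further complement-related genes is not reported here.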

Additional observations from a re-analysis of the deposited data

Results flagged for a closer look

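In 128 sets of one gene in one group of cows, 5 held a single cow whose gap to its nearest neighbour exceeded Dixon's 95% critical value; chance alone gives about 1 in 20. The highest MASP2 value in CONHC was 6706 in cow 208, with the next at 5431. Properdin (CFP) reached 462.9 in CONHC cow 123, with the next at 333.3. C7 reached 892.0 in CONHC cow 41, with the next at 486.3. C3AR1 reached 415.0 in GLYLC cow 544, with the next at 254.3. C5AR1 reached 113.0 in CONLC cow 260, with the next at 46.0.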

How the results depend on the processing

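No estimate of a complement gene with an unadjusted p under 0.05 changed sign under the alternatives run. The number of complement genes called between HC and LC over all cows, 0 as reported, was 1 under RLE, 1 under upper-quartile normalization, 1 by DESeq2 without and 3 with independent filtering, and 0 to 2 on leaving out single cows (without CONHC cow 134 or 144, CONLC cow 169, GLYHC cow 117 or GLYLC cow 102 or 544 it was 1, without CONLC cow 260 it was 2). In control cows it was 1 by DESeq2 on all cows, with or without filtering, and 3 by DESeq2 on the 2 groups alone. In glyphosate cows DESeq2 on the 2 groups without cow 912, an alternative chosen after seeing the data, gave 1. The share of all tested genes called under these alternatives was not counted. The counts at unadjusted p under 0.05 ranged from 4 to 10 in control cows and 5 to 8 in glyphosate cows over the left-out cows. With cows 912 and 103 both left out, also chosen after seeing the data, they were 6 and 6, and 24 signs were shared, against 22 without cow 912 alone. With GLYHC cows 32, 117 and 154 left out as well, they were 7 and 3, and 23 signs were shared. No paired analysis was possible because the groups share no replicate numbers. Genes under about 100 counts, such as FCN1, CD55 and C5AR1, are limited by depth.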
